A study of Homo sapiens with 6 samples.

Results

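The ATP-binding cassette (ABC) transporter family was followed in human DIvA cells with and without p53 after induced DNA cutting. Members were the rows of the gene count table whose symbol is ABC, a subfamily letter from A to G and a number, and 46 of the 55882 rows met this rule. The rule uses symbols and no values, but it was chosen with earlier results of these data known. CFTR, TAP1 and TAP2 belong to the same family but carry other symbols, so they were treated as companion genes and not as members. DIvA cells derive from the osteosarcoma line U2OS and carry AsiSI, a restriction enzyme, joined to a hormone receptor domain, so that 4-hydroxytamoxifen (4-OHT) brings it into the nucleus. The p53 KO group held 3 libraries of DIvA cells with p53 knocked out, and the p53 WT group held 3 libraries of DIvA cells with wild-type p53. Cells of both groups received 300 nM 4-OHT for 5 h, and polyadenylated RNA was sequenced with a stranded kit. No cells without 4-OHT were analysed here. Separate cultures are not named in the labels, nor whether the knockout is 1 clone, so the p-values measure only the spread between these samples.

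ABC proteins bind ATP in a pair of nucleotide-binding domains, and most of them use it to move a substrate across a membrane. Drug efflux pumps such as ABCB1 (P-glycoprotein), ABCC1 and ABCG2 expel toxins and chemotherapeutic agents. Lipid members move phospholipids, sterols and bile components. ABCC8 and ABCC9, the sulfonylurea receptors SUR1 and SUR2, transport nothing that is known and instead gate the ATP-sensitive potassium channel, whose pore is KCNJ11 or KCNJ8. ABCE1 and the ABCF proteins have no membrane domain and act in translation. Among p53 targets described elsewhere is ABCA1, the cholesterol exporter.

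Total counts ranged from 20393909 to 72621732 in p53 KO libraries and from 24347609 to 79767519 in p53 WT libraries. Values are given as CPM, counts scaled to a common library size with TMM factors. Tests are edgeR quasi-likelihood tests fitted on all genes, adjusted by the Benjamini-Hochberg method over 22352 genes, with log2 fold changes of p53 KO over p53 WT. CDKN1A, the cell cycle inhibitor induced by p53, averaged 45.8 ± 3.68 CPM in p53 KO and 542 ± 27.0 CPM in p53 WT (SD, n = 3 each). Of 8 mesenchymal and osteoblast markers, VIM, SPARC and COL1A1 made up most of a summed level of 3299 to 3740 CPM in p53 KO and 5021 to 5656 CPM in p53 WT, and SP7 was at 0 in every library. VIM itself averaged 1618 ± 74.5 CPM in p53 KO and 3333 ± 348.6 CPM in p53 WT (SD, n = 3 each). COL1A1 went the other way, at 929.5 ± 82.8 CPM in p53 KO and 688 ± 10.8 CPM in p53 WT (SD, n = 3 each). The rest were far scarcer: RUNX2, ALPL, BGLAP and COL1A2 averaged 7.26, 1.66, 1.63 and 0.494 CPM in p53 KO. In p53 WT they averaged 11.7, 7.49, 1.58 and 0.315 CPM. The 4 epithelial markers summed to 11.5 to 17.9 CPM in p53 KO and 6.01 to 10.2 CPM in p53 WT, the 4 leukocyte markers to 1.203 to 1.416 CPM in p53 KO and 1.398 to 2.25 CPM in p53 WT, and the 3 endothelial markers to 1.303 to 2.93 CPM in p53 KO and 2.22 to 3.29 CPM in p53 WT. The part of these markers in the members' results was not tested.

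Of the 46 members, 36 had enough reads to be tested, and 11 of these differed: 3 were higher in p53 KO (ABCA4, ABCB4 and ABCA5) and 8 were lower, among them ABCC9, ABCA13, ABCC2, ABCD4, ABCA2, ABCC3 and ABCF3. The background was high, since 26.5% of all genes tested passed the same threshold, 12.1% higher and 14.4% lower. The family's count was therefore near what any group of genes would show, and the results concern single members. Of the 36 tested, 6 passed and differed at least 2-fold (ABCC9, ABCA4, ABCB4, ABCA13, ABCC2 and ABCD4), against 9.25% of all genes tested. In 16 of the 36 the groups did not overlap, against 40.8% of all genes. The median log2 fold change was -0.041 over the 36 members and 0.0052 over all genes tested. Summed over all members, the family took 0.0940% to 0.104% of the counts in p53 KO libraries and 0.0962% to 0.105% in p53 WT libraries. In bulk RNA, fewer cells with a transcript and less transcript per cell cannot be told apart.

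**Figure D1:**
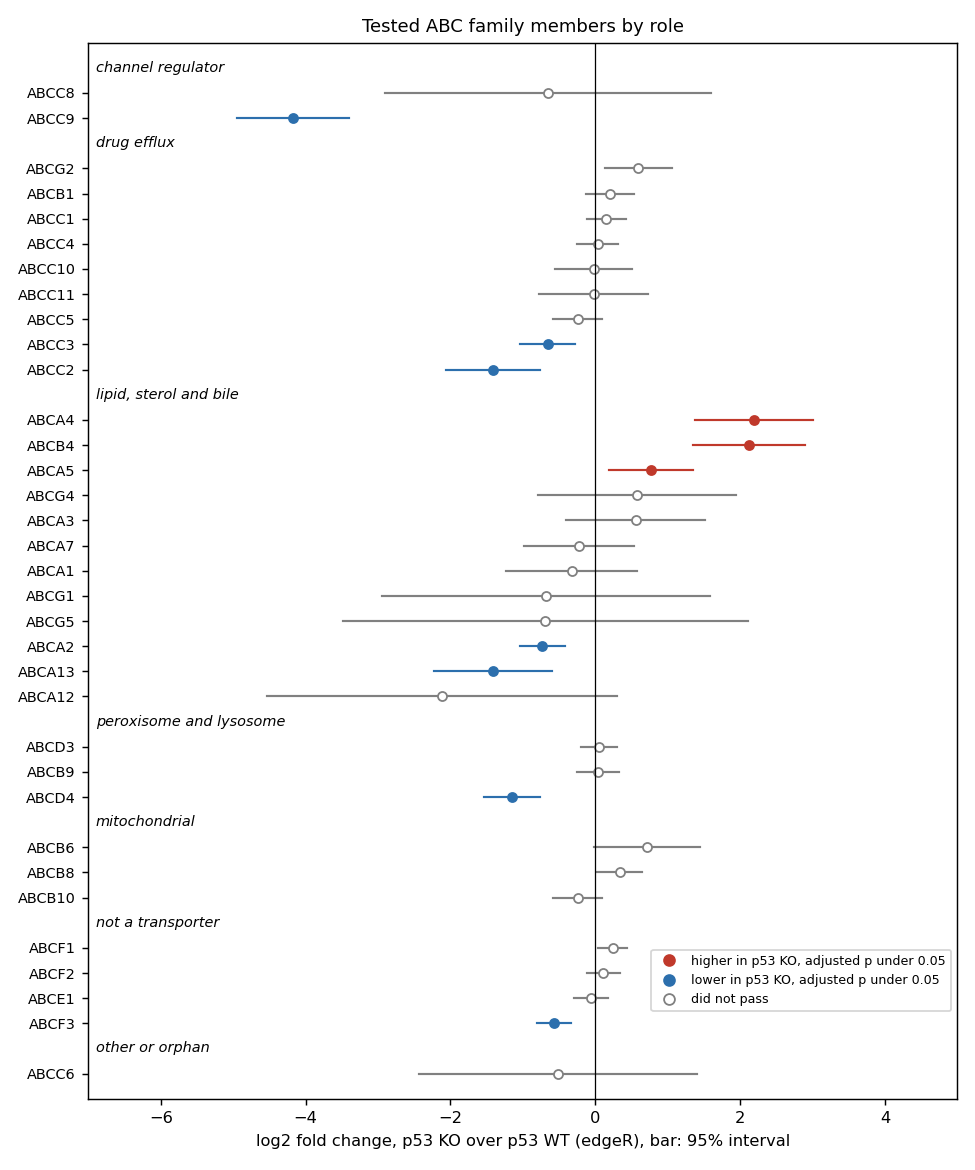
Log2 fold change of p53 KO over p53 WT for 34 of the 36 tested ABC members, grouped by role, with the 95% interval as a bar; filled points passed an adjusted p under 0.05. ABCC9 lies at -4.18, far left of the other members, while ABCA4 and ABCB4 lie at 2.19 and 2.12.

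Of the 2 channel regulators, ABCC9 fell in p53 KO and ABCC8 did not pass. ABCC9 had 0.621, 1.93 and 2.51 CPM in the p53 KO libraries, against 22.9, 28.0 and 32.2 CPM in the p53 WT libraries. The groups lay far apart, although the p53 KO libraries also spread among themselves, with replicate 1 lowest. ABCC9 fell by 4.18 on the log2 scale (SE 0.36, adjusted p = 1.67e-06 by edgeR), which is 18.1-fold lower in p53 KO. Its share of the family's summed CPM averaged 0.171% in p53 KO and 2.72% in p53 WT. Over all 17 alternative settings its log2 fold change stayed between -4.59 and -3.66. ABCC8, the related receptor best known from pancreatic beta cells, was scarce in every library, with 0.0540, 0.220 and 0.652 CPM in p53 KO and 0.928, 0.193 and 0.206 CPM in p53 WT. Its groups overlapped, and its log2 fold change of -0.66 had a 95% interval from -2.90 to 1.59. A difference of several-fold in either direction was therefore not excluded.

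Of the pore genes that lie beside these receptors, KCNJ8 did not pass and KCNJ11 rose in p53 KO. KCNJ8, the pore that pairs with ABCC9 in vascular cells and lies next to it on chromosome 12, had 5.88, 5.76 and 5.46 CPM in p53 KO and 5.36, 4.13 and 4.11 CPM in p53 WT. The groups did not overlap, but its log2 fold change of 0.33 with an SE of 0.23 (adjusted p = 0.337 by edgeR) did not pass. Within a library, the ratio of ABCC9 to KCNJ8 CPM was 0.106, 0.335 and 0.459 in p53 KO, against 4.26, 6.77 and 7.84 in p53 WT (two-sided exact permutation test on log2 ratios, p = 0.1, the smallest that 3 against 3 allows). ABCC9 alone already separated the groups and KCNJ8 varied little, so this p-value adds no support. KCNJ11, the pore that pairs with ABCC8 and lies next to it on chromosome 11, had 2.15, 1.39 and 2.31 CPM in p53 KO and 0.407, 0.119 and 0.206 CPM in p53 WT. It rose by 2.95 on the log2 scale (SE 0.57, adjusted p = 0.00151 by edgeR), with every p53 KO library above every p53 WT library.

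ABCC9 and KCNJ8 together are also known as markers of pericytes, the contractile cells around capillaries. Summed over the 7 pericyte and smooth muscle markers examined, levels were 123 to 136 CPM in p53 KO and 116 to 135 CPM in p53 WT. None of the 7 was at 0 in every library, but DES had 0 reads in p53 WT replicate 1. The markers did not move together: PDGFRB (0.59), NOTCH3 (0.59) and DES (4.66) were higher in p53 KO on the log2 scale, and ACTA2, smooth muscle actin, was lower (-3.28). Their part in the ABCC9 result was not tested.

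The promoters of ABCC9 and KCNJ8 are shown because these genes lie side by side and ABCC9 alone of them passed. Each line holds the 250 bases before the RefSeq start, 5′ to 3′ on the gene's strand, and capitals mark a GC box (GGGCGG, on either strand). Both genes lie on the minus strand of chromosome 12 in GRCh38.p14, ABCC9 at chr12:21941427-21941676 and KCNJ8 at chr12:21774707-21774956.
ABCC9: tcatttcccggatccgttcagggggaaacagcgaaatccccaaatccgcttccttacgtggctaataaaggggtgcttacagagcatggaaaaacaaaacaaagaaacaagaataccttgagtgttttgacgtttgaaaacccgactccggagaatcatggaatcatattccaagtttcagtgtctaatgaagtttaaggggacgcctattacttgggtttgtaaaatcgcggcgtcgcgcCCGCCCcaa
KCNJ8: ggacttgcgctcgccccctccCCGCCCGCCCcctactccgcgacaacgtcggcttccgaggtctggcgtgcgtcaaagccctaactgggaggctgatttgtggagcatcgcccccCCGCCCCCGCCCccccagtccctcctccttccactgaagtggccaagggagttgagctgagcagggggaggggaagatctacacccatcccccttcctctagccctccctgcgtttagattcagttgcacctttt
The ABCC9 window was 46% G and C and held 1 GC box, while the KCNJ8 window was 64.8% G and C and held 4, in a pair that overlaps and a pair that adjoins. GC boxes were in 42.3% of 27305 promoter windows of the same length and in 18 of the 35 members with a window. A core of a full p53 site with no spacer is CATG, any 6 bases and CATG again, which reads alike on both strands. This core was in neither window and in 0 of the 35 members, against 0.297% of all windows. At that share a set of this size would mostly hold none, so the core's absence says nothing about p53 binding. Sites with other core letters, with a spacer or outside the 250 bases were not searched. Neither window held a CCAAT or a TATAAA, on either strand. In the authors' deposited table, 0 of the 46 members carried the mark for the p53 cistrome, which 124 of its 35987 rows carried, CDKN1A among them. With so rare a mark, a set of 46 would mostly carry none, so this count says as little. That table gives ABCC9 a log2 fold change of 4.04, which runs p53 WT over p53 KO.

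**Figure D2:**
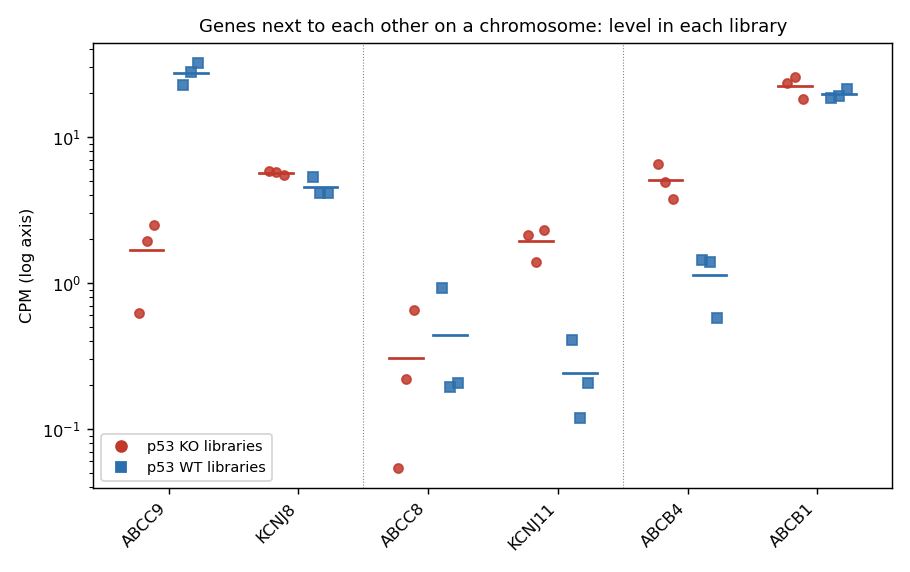
CPM on a log axis in each library for ABCC9 and KCNJ8, ABCC8 and KCNJ11, and ABCB4 and ABCB1, each pair lying side by side on a chromosome; points are libraries and short lines group means, with p53 KO left of p53 WT. ABCC9 lies at 0.621 to 2.51 CPM in p53 KO and 22.9 to 32.2 CPM in p53 WT, while KCNJ8 stays between 4.11 and 5.88 CPM in both groups.

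Among 10 drug efflux pumps 9 were tested, and 2 passed the test, both lower in p53 KO. ABCC2 (MRP2), which exports organic anions and their glutathione and glucuronide conjugates, had 2.46, 3.35 and 1.45 CPM in p53 KO, against 5.30, 6.69 and 7.81 CPM in p53 WT. The groups did not overlap, and ABCC2 fell by 1.41 on the log2 scale (SE 0.30, adjusted p = 0.00300 by edgeR). ABCC3 (MRP3), a basolateral pump for similar conjugates in liver and gut, had 8.75, 12.8 and 9.12 CPM in p53 KO and 17.02, 15.5 and 15.9 CPM in p53 WT. It fell by 0.66 (SE 0.18, adjusted p = 0.0137 by edgeR), and without p53 KO replicate 1 its change was -0.55 with an adjusted p of 0.0594 by edgeR.

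The pumps best known from multidrug resistance did not pass. ABCB1 averaged 22.6 ± 4.00 CPM in p53 KO and 19.7 ± 1.52 CPM in p53 WT (SD, n = 3 each), with a 95% interval of the log2 fold change from -0.13 to 0.53. ABCC1 (MRP1) averaged 49.5 ± 2.31 CPM in p53 KO and 44.8 ± 6.95 CPM in p53 WT (SD, n = 3 each), with an interval from -0.12 to 0.42. ABCC4 (MRP4), which also exports cyclic nucleotides, averaged 47.9 ± 8.28 CPM in p53 KO and 47.1 ± 3.98 CPM in p53 WT (SD, n = 3 each), with an interval from -0.26 to 0.32. For these 3 pumps the interval lies within a 2-fold change in either direction.

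ABCG2, the breast cancer resistance protein, had 7.11, 6.47 and 6.11 CPM in p53 KO and 4.32, 4.39 and 4.36 CPM in p53 WT. Its groups did not overlap, but its log2 fold change of 0.60 (SE 0.21) had an adjusted p of 0.0535 by edgeR. It passed under RLE factors (adjusted p = 0.0499 by edgeR), upper-quartile factors, no factors, the stricter filter, the DESeq2 fit run here (adjusted p = 0.0464) and limma-voom (adjusted p = 0.0272). It did not pass in the authors' DESeq2 comparison (adjusted p = 0.0582) or with the local median taken off (adjusted p = 0.0631 by edgeR). Nor did ABCG2 pass with the replicate block or in any fit that left out a library. ABCC5 (MRP5), a cyclic nucleotide and antifolate pump with the highest mean CPM of the pumps that did not pass, averaged 44.1 ± 10.2 CPM in p53 KO and 52.4 ± 8.02 CPM in p53 WT (SD, n = 3 each), a log2 fold change of -0.24 (SE 0.16). It passed in the fit that left out p53 KO replicate 2 (-0.45, adjusted p = 0.0372 by edgeR). ABCC10 and ABCC11 had log2 fold changes of -0.023 and -0.024, with intervals from -0.56 to 0.51 and from -0.77 to 0.73. ABCB5 had 14 reads, all in p53 WT replicate 2, and was not tested.

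Of 18 members that handle lipids, sterols and bile, 12 were tested, with 3 higher and 2 lower in p53 KO. ABCA4, the retinoid flippase of photoreceptors that is mutated in Stargardt disease, had 6.52, 4.30 and 7.92 CPM in p53 KO and 1.70, 1.67 and 0.534 CPM in p53 WT. It rose by 2.19 on the log2 scale (SE 0.38, adjusted p = 0.000642 by edgeR), and all p53 KO libraries lay above all p53 WT libraries. ABCB4 (MDR3), which flips phosphatidylcholine into bile, had 6.58, 4.93 and 3.76 CPM in p53 KO and 1.44, 1.40 and 0.575 CPM in p53 WT. It rose by 2.12 (SE 0.36, adjusted p = 0.000580 by edgeR), again without overlap.

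ABCB4 lies next to ABCB1, whose protein it closely resembles. The ratio of ABCB4 to ABCB1 CPM within a library was 0.279, 0.190 and 0.207 in p53 KO, against 0.0774, 0.0732 and 0.0269 in p53 WT (two-sided exact permutation test on log2 ratios, p = 0.1, the smallest possible). The groups did not overlap in this ratio, but ABCB4 alone already separated them, so this p-value adds no support. The local median log2 fold change of the 50 nearest genes was 0.009. Reads shared between similar members are uncertain, since the counting tool is not given in the sources used here.

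ABCA5, an endosomal and lysosomal lipid transporter, had 8.73, 5.49 and 6.11 CPM in p53 KO and 4.84, 4.25 and 2.75 CPM in p53 WT. Its rise of 0.77 (SE 0.27, adjusted p = 0.0489 by edgeR) was just past the threshold. The call was lost without p53 KO replicate 1 (0.54), p53 WT replicate 2 (0.82) or p53 WT replicate 3 (0.58), with adjusted p of 0.219, 0.107 and 0.178 by edgeR. In the authors' DESeq2 comparison ABCA5 did not pass, with an adjusted p of 0.153, whereas in the DESeq2 fit run here it did (adjusted p = 0.0376). Its neighbours on chromosome 17 were lower, with a local median of -0.31, and with that median taken off ABCA5 had 1.08 (adjusted p = 0.0114 by edgeR). Exons of ABCA5 and ABCA10 overlap on the same strand in GENCODE 29, so reads there are uncertain, although ABCA10 had 8 reads in p53 KO and 14 in p53 WT in all.

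ABCA2, which moves sterols and sphingolipids in endolysosomes of nerve and glial cells, had 18.7, 24.1 and 17.7 CPM in p53 KO and 30.7, 33.7 and 36.3 CPM in p53 WT. It fell by 0.73 (SE 0.14, adjusted p = 0.00177 by edgeR). ABCA2 lies near the end of chromosome 9, where the 50 nearest genes had a median of -0.55, and with that taken off its change was -0.18 (adjusted p = 0.445 by edgeR), a setting chosen after seeing the data. ABCA13, the longest protein of the subfamily, had 1.45, 3.22 and 1.80 CPM in p53 KO and 3.15, 6.13 and 8.18 CPM in p53 WT. The groups just overlapped, at p53 KO replicate 2 and p53 WT replicate 1. Its fall of 1.42 (SE 0.38, adjusted p = 0.0127 by edgeR) lost its call without p53 KO replicate 1 (-1.16, adjusted p = 0.0632 by edgeR) or p53 WT replicate 3 (-1.11, adjusted p = 0.0778 by edgeR).

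**Figure D3:**
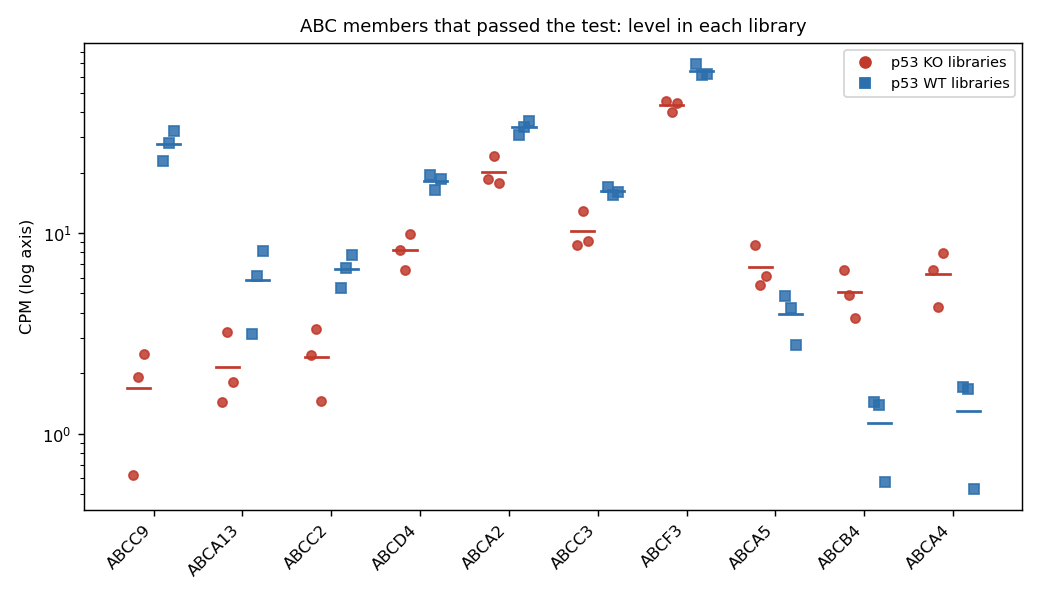
CPM on a log axis in each library for 10 of the 11 members that passed the test, those lower in p53 KO and then those higher, each by fold change, with p53 KO left of p53 WT and group means as short lines. For 9 of the 10 the groups do not overlap; ABCA13 is the exception, with 3.22 CPM in p53 KO replicate 2 and 3.15 CPM in p53 WT replicate 1.

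The sterol exporters were scarce and did not pass. ABCA1 had 1.31, 0.928 and 1.303 CPM in p53 KO and 1.70, 1.07 and 1.69 CPM in p53 WT, a log2 fold change of -0.33 with an SE of 0.42 (adjusted p = 0.634 by edgeR). Its 95% interval, from -1.23 to 0.57, includes both a fall by 1 and no change. ABCG1, which loads cholesterol onto high-density lipoprotein, had 0.176, 0.635 and 0 CPM in p53 KO and 0.788, 0.223 and 0.329 CPM in p53 WT. ABCA7, with the highest mean CPM among lipid members that did not pass, had a log2 fold change of -0.23, with an interval from -0.99 to 0.53. ABCA12, the lipid transporter of the skin barrier, had 43, 0 and 0 reads in p53 KO and 69, 21 and 44 reads in p53 WT. Its log2 fold change of -2.12 (SE 1.13) had an adjusted p of 0.198 by edgeR, and without p53 KO replicate 1, the only p53 KO library with reads, it passed (adjusted p = 0.00703 by edgeR).

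In peroxisomes and lysosomes 2 of 4 tested members passed, both lower. ABCD4, which helps release vitamin B12 from lysosomes, had 8.23, 6.57 and 9.87 CPM in p53 KO and 19.5, 16.3 and 18.5 CPM in p53 WT. It fell by 1.15 (SE 0.18, adjusted p = 0.000324 by edgeR). The 8 genes nearest to it on chromosome 14 had log2 fold changes of -2.10 to -0.44, and 6 of them passed. NPC2 and ISCA2, the next genes after it, had log2 fold changes of -0.90 and -1.37, and the local median was -0.88. With that median taken off, ABCD4 had -0.27 (adjusted p = 0.344 by edgeR) and no longer passed. ABCD3, the abundant peroxisomal member, averaged 77.9 ± 11.4 CPM in p53 KO and 75.3 ± 2.64 CPM in p53 WT (SD, n = 3 each), and ABCB9, a lysosomal peptide transporter, averaged 62.9 ± 12.3 CPM in p53 KO and 61.0 ± 4.87 CPM in p53 WT (SD, n = 3 each). Neither passed, exons of ABCB9 overlap ARL6IP4 and OGFOD2 on the other strand in GENCODE 29, and their 95% intervals were -0.20 to 0.30 and -0.25 to 0.33 on the log2 scale.

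None of the 4 mitochondrial members passed in edgeR. In all 4 the groups did not overlap, which also held for 40.8% of all genes tested. ABCB8, a subunit of a mitochondrial potassium channel, had 0.33 (SE 0.14, adjusted p = 0.110 by edgeR). ABCB6, a porphyrin transporter, had 0.71 (SE 0.34, adjusted p = 0.149 by edgeR). ABCB10, which works in heme synthesis of red cell precursors, had -0.25 (SE 0.16, adjusted p = 0.289 by edgeR). Before adjustment 1 of the 4, ABCB8, was under 0.05 in edgeR, and 0 of the 4 passed in DESeq2 or limma-voom.

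Of the 4 members that are not transporters, ABCF3, a cytosolic protein tied to antiviral signalling in mice, was lower. It had 45.4, 40.2 and 44.4 CPM in p53 KO and 69.4, 61.5 and 61.9 CPM in p53 WT, and fell by 0.57 (SE 0.11, adjusted p = 0.00136 by edgeR). EIF2B5, DVL3 and AP2M1, just before it on chromosome 3, had log2 fold changes of -0.64, -0.38 and -0.48. After it, VWA5B2, ALG3, CAMK2N2 and ECE2 had -0.50, -0.067, -0.35 and -0.031 and did not pass. With the local median of -0.33 taken off, ABCF3 had -0.24 (adjusted p = 0.145 by edgeR). ABCF1, which takes part in translation initiation, had 235, 239 and 264 CPM in p53 KO and 199, 209 and 217 CPM in p53 WT. Its log2 fold change was 0.24 with an SE of 0.092 (adjusted p = 0.0702 by edgeR), so it missed the threshold with groups that did not overlap. In the authors' DESeq2 comparison ABCF1 did pass, with an adjusted p of 0.0037, but in the DESeq2 fit run here it did not (adjusted p = 0.0512). ABCE1, which splits ribosomes after termination, averaged 150.1 ± 18.2 CPM in p53 KO and 156 ± 10.5 CPM in p53 WT (SD, n = 3 each), with a 95% interval of the log2 fold change from -0.29 to 0.17, and its exons overlap those of ANAPC10 on the other strand. ABCF2, which has listed pseudogenes, had 0.11 (SE 0.11) and did not pass.

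**Figure D4:**
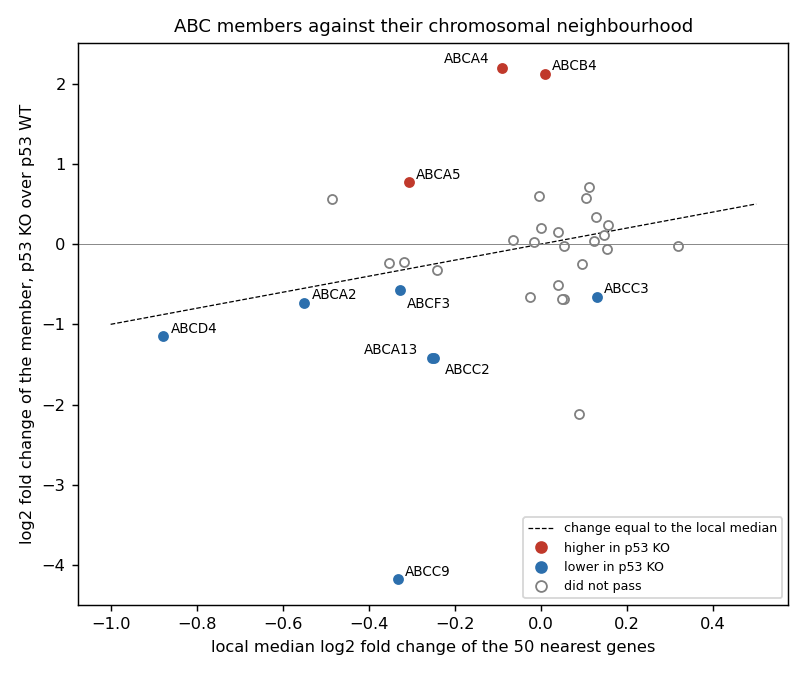
Log2 fold change of 34 tested members (y) against the median log2 fold change of the 50 nearest genes in chromosome order (x); the dashed line marks a change equal to that median. ABCD4, ABCA2 and ABCF3 lie near the line, at -0.27, -0.18 and -0.24 from it, while ABCC9, ABCA4 and ABCB4 lie more than 2 away from it.

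Compared per length, as CPM per kilobase of merged GENCODE 29 exons, ABCF1 and ABCE1, which have no membrane domain, led the family in both groups. ABCF1 had 67.6 to 75.8 CPM per kilobase in p53 KO and 57.1 to 62.3 in p53 WT, and ABCE1 had 33.0 to 41.6 CPM per kilobase in p53 KO and 37.3 to 42.6 in p53 WT. ABCF3, ABCD3 and ABCF2 followed, at 15.3 to 17.3, 17.5 to 23.4 and 17.7 to 20.98 CPM per kilobase in p53 KO. In p53 WT they stood at 23.4 to 26.5, 19.4 to 20.8 and 17.8 to 18.8. ABCD3 and ABCF2 overlapped in p53 KO, and all 3 stood apart in p53 WT. Per length ABCC9 held place 29 of 46 in p53 KO and place 17 in p53 WT, while ABCB4 held place 19 in p53 KO and 27 in p53 WT.

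**Figure D5:**
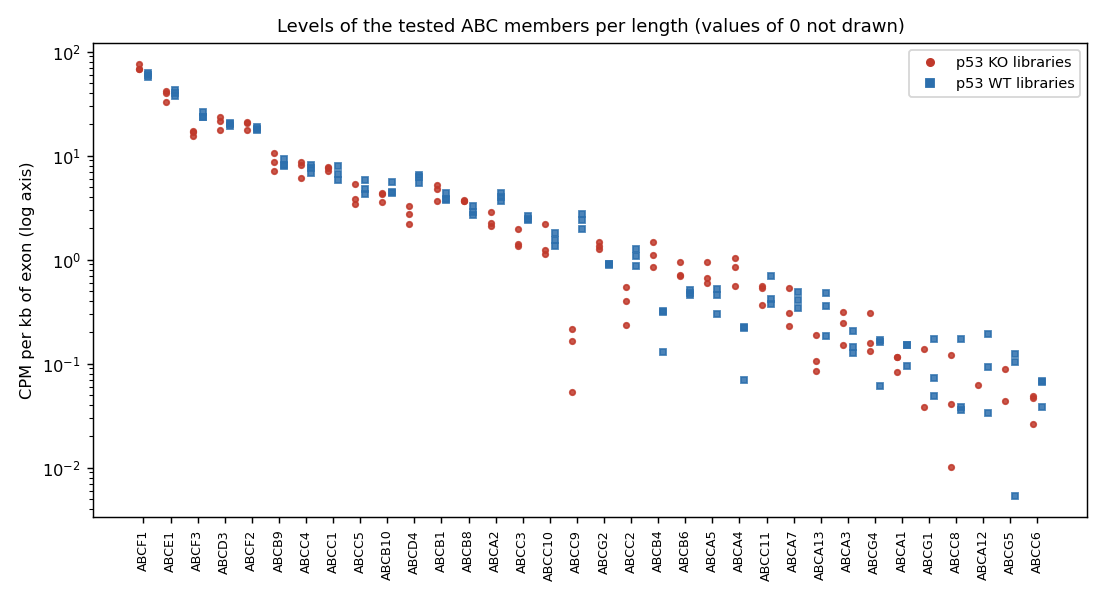
CPM per kilobase of exon on a log axis for 34 of the tested members in order of their mean level, with p53 KO libraries left of p53 WT libraries; values of 0 are not drawn. ABCF1 leads in both groups, and ABCC9 stands at 0.0535 to 0.216 in p53 KO and 1.97 to 2.77 in p53 WT.

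The 10 untested members had at most 76 reads in a library. ABCA6, in a cluster of lipid transporters on chromosome 17, had 52, 2 and 0 reads in p53 KO and 0 in each p53 WT library. Its reads lay almost wholly in p53 KO replicate 1. The peroxisomal ABCD2 had 76, 1 and 3 reads in p53 KO and 12, 7 and 12 reads in p53 WT, and p53 KO replicate 1 stood above the other 5 libraries. ABCA8, ABCA9, ABCA10, ABCB11, ABCC12 and ABCG8 had at most 24 reads over a group. ABCC13, a pseudogene in humans, was at 0 in every library, which leaves room for 3 counts, or 0.1504 CPM, in the shallowest library, p53 KO replicate 3. The authors' deposited table nonetheless lists ABCC13 with a mean signal of 0.716, so that table was not made from exactly these rows. ABCC6, which releases ATP and restrains calcification, was tested at 0.252 ± 0.0779 CPM in p53 KO and 0.356 ± 0.102 CPM in p53 WT (SD, n = 3 each). Its interval ran from -2.44 to 1.41 on the log2 scale, and since pseudogene copies are listed, its reads are uncertain. Of all 25 tested members that did not pass, the 95% interval lay within a 2-fold change for 15.

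Companion genes were counted from lists chosen with earlier results of these data known. Over all genes tested, 12.1% were higher and 14.4% lower, and each list count is a description beside these shares. Of 13 genes of liver X receptor signalling and cholesterol export, 0 rose and 3 fell. NPC1, which exports cholesterol from lysosomes, averaged 46.4 ± 3.78 CPM in p53 KO and 102 ± 3.33 CPM in p53 WT (SD, n = 3 each), a log2 fold change of -1.13 with an SE of 0.10 (adjusted p = 3.01e-06 by edgeR). Its partner NPC2 had -0.90 and RXRA, the partner of the liver X receptors, had -0.42, but with the local median taken off they had -0.0022 and 0.13 and did not pass. RXRA also lost its call without p53 KO replicate 1 (-0.36, adjusted p = 0.0589 by edgeR) or p53 WT replicate 2 (-0.43, adjusted p = 0.0541 by edgeR). The receptors themselves, NR1H2 and NR1H3, had 0.047 and -0.12 and did not pass.

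Of 14 tested genes of glutathione supply and xenobiotic sensing, 0 rose and 4 fell, against 26.5% of all genes tested that passed in either direction. Those of glutathione supply feed conjugates to ABCC1, ABCC2 and ABCC3. MGST1, a microsomal glutathione transferase, averaged 68.0 ± 3.86 CPM in p53 KO and 125 ± 15.01 CPM in p53 WT (SD, n = 3 each), a log2 fold change of -0.88 with an SE of 0.11 (adjusted p = 4.82e-05 by edgeR). GSTO1, another glutathione transferase, had -0.62. GCLC, the catalytic subunit of the first step of glutathione synthesis, had -0.36, and it lost its call without p53 KO replicate 3 (-0.26, adjusted p = 0.0725 by edgeR) or p53 WT replicate 2 (-0.33, adjusted p = 0.118 by edgeR). NFE2L2 (NRF2) and AHR, regulators of such genes, had 0.21 and 0.69 and did not pass.

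Of 9 peroxisome genes 2 rose, HSD17B4 (0.36) and PEX3 (0.45), and 0 fell, and both lost their call in 4 or more of the 6 fits that left out a library. Of 6 genes of ribosome recycling and of the GCN1 and GCN2 pathway, only the kinase EIF2AK4 (GCN2) passed, at -0.38 (SE 0.099, adjusted p = 0.0105 by edgeR), and not without p53 WT replicate 2 (-0.36, adjusted p = 0.0640 by edgeR). Of 8 genes of mitochondrial iron-sulfur and heme synthesis 4 fell and 1 rose. FECH, which inserts iron into heme, averaged 15.3 ± 0.394 CPM in p53 KO and 34.9 ± 2.28 CPM in p53 WT (SD, n = 3 each). SLC25A37 (mitoferrin), the mitochondrial iron importer, averaged 44.4 ± 6.11 CPM in p53 KO and 74.3 ± 2.32 CPM in p53 WT (SD, n = 3 each). GLRX5, a glutaredoxin of iron-sulfur cluster assembly, had -0.84, but 0.15 with the local median of -0.995 taken off. CFTR, TAP1 and TAP2, the family members under other symbols, had log2 fold changes of 0.65, -0.31 and 0.13 and did not pass.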

How the data were processed

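The authors deposited raw counts per gene symbol for 6 libraries, and a comparison table holding a mean signal, log2 fold changes and their errors, a test score, p-values and a cistrome mark. The submitters' processing notes name GRCh37, fastp 0.21.0, HISAT2 2.1.0 and DESeq2 1.3.6. No source used here gives the counter, annotation or strand setting, so overlapping and near-identical genes are uncertain. The deposited log2 fold changes run p53 WT over p53 KO, judged from CDKN1A.

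The counts went into edgeR 4.0.16 under R 4.3.3 (TMM, filterByExpr, robust quasi-likelihood), which kept 22352 genes, with a threshold of 0.05 on the adjusted p. Each SE is the size of the log2 fold change over the square root of F. The fit was tested on simulated data. Members, lists and alternatives were chosen with earlier results of these data known. The genes named are CDKN1A and MDM2 (log2 fold change -1.93), all members past the threshold, the most abundant other member of each role, up to 3 genes past the threshold per companion list, and KCNJ8 and KCNJ11. Further genes were named after their values were seen. A few genes under this rule are not reported here. All 56 companion genes were found, 1 of them by a RefSeq synonym.

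The alternatives were other factors (RLE, upper-quartile, none), other filters (none, or 1 CPM in 3 libraries), DESeq2 1.42.0, limma-voom (limma 3.58.1), a threshold of 0.01, a replicate block, leaving out each library, and subtracting the median log2 fold change of the 50 nearest genes. Gene order was that of RefSeq GRCh38.p14, a build other than the authors', over 12095 protein-coding genes averaging 2 CPM or more. Total counts were 20393909 to 79767519, and floors of 3 counts cover counting error only.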

Additional observations from a re-analysis of the deposited data

How the results depend on the processing

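Of the 11 members that passed, 4 (ABCC9, ABCA4, ABCB4 and ABCC2) kept their call and direction under all 17 alternatives run, and 7 lost it under at least 1. Members higher in p53 KO numbered 3 in the reported test and 5 under upper-quartile factors, no factors, the filter of 1 CPM in 3 libraries, DESeq2 and limma-voom, where ABCG2 and either ABCF1 or, in DESeq2, ABCA6 joined. Members lower numbered 8, and 5 at an adjusted p under 0.01 and also 5 with the local median taken off at chromosome ends too, a setting chosen after seeing the data. At an adjusted p under 0.01, 1659 genes were higher and 2099 lower over all genes, against 2697 and 3227 at 0.05, and companion genes numbered 2 higher and 7 lower, against 4 and 12. Companion genes higher were 2 with the local median taken off, also at chromosome ends. RXRA turned to 0.13 and GLRX5 to 0.15 with it taken off, neither past the threshold. The cause of these shifts was not tested. Leaving out 1 library gave 2 to 3 members higher and 7 to 9 lower, and 2 to 5 companion genes higher and 7 to 12 lower. No pairing by replicate number was seen: deviations of same-numbered libraries correlated at 0.017, 0.034 and -0.029 for numbers 1, 2 and 3. Those of differently numbered libraries correlated at -0.107 to 0.077. With 3 libraries per group, these values cannot show whether same-numbered libraries shared a batch. With the replicate block, 3 members were higher and 8 lower, the same members as without it. Depth limits the scarce members: 6 tested members averaged under 1 CPM, and 0 of them passed in edgeR, with 0 under 0.05 before adjustment; without the filter on low counts ABCA12 passed, as did the untested ABCA6.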
